A study of Homo sapiens with 12 samples.

Results

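Interferon-stimulated genes are the genes that a cell turns on after an interferon has bound its receptor. A set of 45 genes of the interferon pathway, called members below, was chosen by gene name out of 58347 genes counted in A375 cells. A375 is an established human melanoma line that carries mutant BRAF. No measured value entered the rule, but the set was drawn up with earlier results of these data known. Of the 45 members, 42 were among the 16740 genes with enough counts to be tested, and IRF9, IFI27 and XAF1 were not. RNA-seq was performed on 12 samples in 4 treatment groups of 3 replicates each: dimethyl sulfoxide vehicle (DMSO), vemurafenib, tretinoin, and a combination labelled vemurafenib + tretinoin. The labels list 5 µM for each group, the vehicle included, and an exposure of 8 h; they do not give the concentration of each drug within the combination. Tretinoin is a retinoid that activates the retinoic acid receptors, and vemurafenib inhibits mutant BRAF, the kinase that drives MAPK signaling in these cells. No group received an interferon, and all samples come from 1 cell line. Samples within a group are not described as independent cultures, so P-values measure the spread between these samples, which may be technical.

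In the textbook pathway, type I and type III interferons activate JAK kinases at the cell surface, and a complex of STAT proteins with IRF9 then binds the interferon-stimulated response element upstream of target genes. Interferon gamma acts through a second DNA motif, the gamma-activated site. The target genes encode antiviral effectors, sensors of foreign RNA, subunits of the immunoproteasome and regulators that feed back on the pathway. In melanoma cells this program is best known for its bearing on antigen presentation and on recognition by immune cells.

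Upstream sequences of 6 members are shown because they hold the 2 motifs to which the pathway's factors are known to bind, and because these genes differed in their response. They were taken from RefSeq (GRCh38.p14) and are printed 5′ to 3′ on the gene's strand, with motif matches in capitals and positions counted from the transcription start, where -1 is the base before it.
IFIT1: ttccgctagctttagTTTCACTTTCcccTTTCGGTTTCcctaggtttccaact
IFIT3: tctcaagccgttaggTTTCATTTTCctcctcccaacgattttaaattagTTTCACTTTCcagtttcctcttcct
ISG15: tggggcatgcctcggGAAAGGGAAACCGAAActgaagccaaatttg
SAMD9: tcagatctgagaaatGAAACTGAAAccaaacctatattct
IFI44: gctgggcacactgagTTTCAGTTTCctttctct
IRF1: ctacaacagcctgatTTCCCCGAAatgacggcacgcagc
The first 5 stretches hold the interferon-stimulated response element, searched on both strands as a pair of GAAA repeats with any 2 bases between them (TTTC on the other strand). The IRF1 stretch holds the gamma-activated site, searched as TTC and GAA with any 3 bases between them, which reads the same on both strands.

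The IFIT1 stretch lies at chr10:89392492-89392544 on the plus strand, with elements at -116 to -107 and -103 to -94. For IFIT3, chr10:89327826-89327899 on the plus strand precedes the first-listed of 2 starts, and its last 6 bases fall in an annotated IFIT3 exon. ISG15, at chr1:1013369-1013414 on the plus strand, has overlapping elements that begin at -113 and -107. The remaining stretches are chr7:93118091-93118130 on the minus strand for SAMD9, chr1:78649756-78649788 on the plus strand for IFI44 and chr5:132490874-132490912 on the minus strand for IRF1, none of them in an annotated exon.

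RefSeq windows from 250 bases before to 50 after the start were found for 34 of the 45 members. The response element was present in 23 of these 34 (67.6%), against 4.38% of all 27305 genes with a window, and the gamma-activated site in 9 (26.5%), against 9.38%. Matches of the 2 motifs can overlap, and a match describes only the letters of the window. IRF2, IRF3, IRF7, IFIT2, IFITM2, MX2, OAS2, OASL, TRIM22, USP18 and GBP2 had no window.

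Total counts per sample ranged from 13510235 to 21534377. Tretinoin replicate 1 stood apart from its group, with a chi-square per degree of freedom of 19.1 and 21.8 against the other replicates, which gave 2.56 between them. All 6 MAPK output genes checked fell with vemurafenib, and 3 of 5 retinoid-responsive genes rose with tretinoin, where CYP26A1 and RARB did not pass the test. DUSP6, a feedback phosphatase of MAPK signaling, fell by 6.07 (log2, SE 0.13) with vemurafenib, and the retinoid-responsive DHRS3 rose by 2.91 (SE 0.09) with tretinoin. Of 8 melanocyte lineage markers, SOX10 had 0 counts in all samples and TYR at most 1, while MITF, S100B and PAX3 were expressed. MLANA, DCT and PMEL had at most 19, 18 and 25 counts per sample. MITF was called up with vemurafenib and with the combination. The melanocyte markers summed to 37.9 to 42.7 normalized CPM in DMSO and 34.1 to 38.8 in tretinoin. In vemurafenib the sum was 53.5 to 56.2, and in the combination 47.7 to 50.3. Among 5 leukocyte markers 2 passed the count filter, none was at 0 throughout, and CD3E and CLEC4C had at most 9 and 3 counts; the summed level was 1.85 to 3.92 CPM (counts relative to the library total after TMM scaling) in DMSO, 3.62 to 6.52 in tretinoin, 4.0 to 4.75 in vemurafenib and 4.51 to 6.33 in the combination. PTPRC, the leukocyte antigen CD45, accounted for the 1 call in that list and rose by 1.46 (SE 0.32) with tretinoin, 1.36 (SE 0.32) with vemurafenib and 1.77 (SE 0.30) with the combination. For 7 fibroblast, epithelial and endothelial markers, none at 0 throughout, the summed level was 4.43 to 5.67 CPM in DMSO, 4.71 to 7.11 in tretinoin, 8.71 to 9.19 in vemurafenib and 7.29 to 8.97 in the combination. These sums move with the treatments in which members rose, except the melanocyte sum in tretinoin, and their part in the results was not tested.

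**Figure D1:**
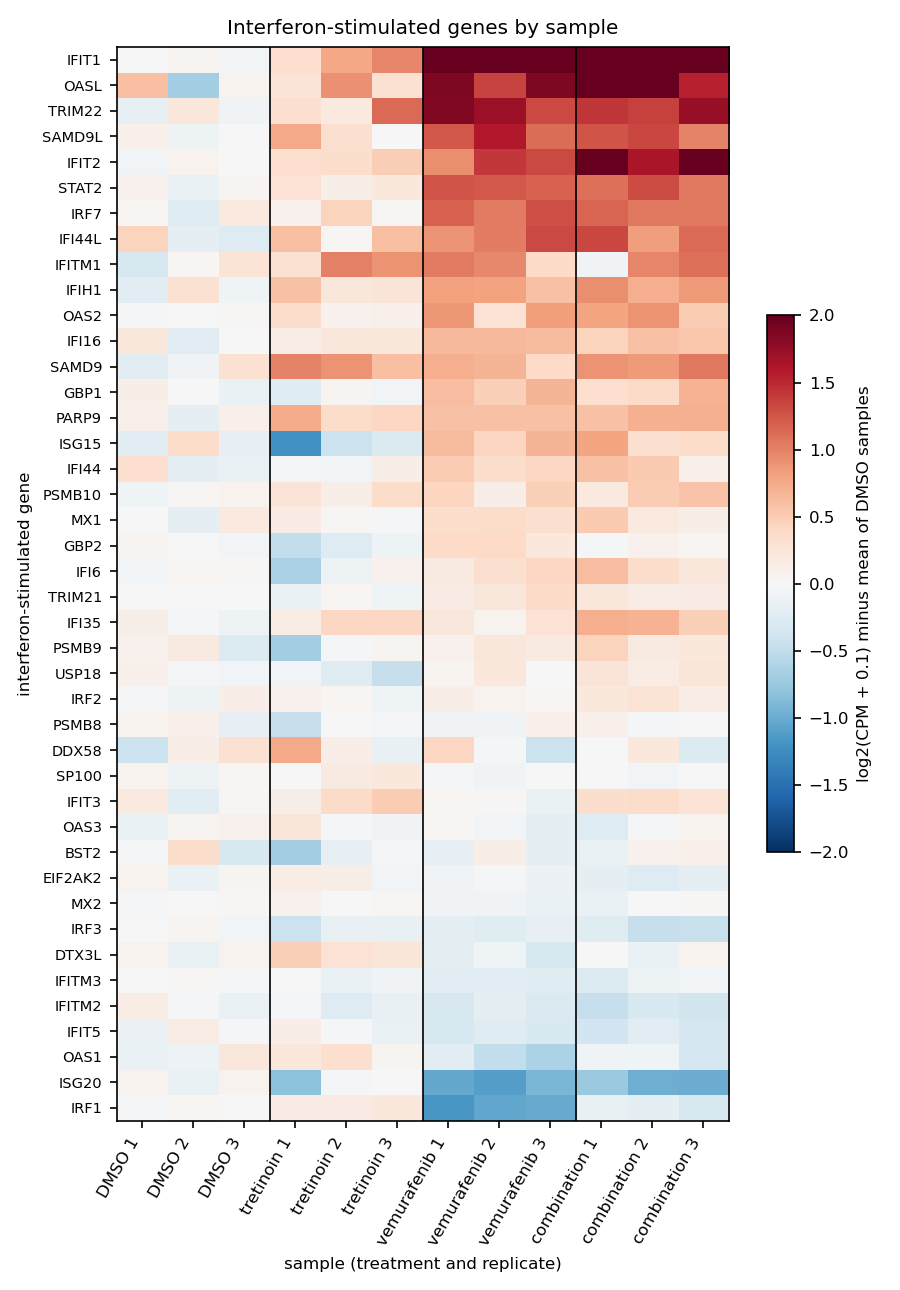
Heat map of the 42 tested members (rows) in the 12 samples (columns), colored by log2(CPM + 0.1) minus the mean of the DMSO samples. Values beyond 2 take the darkest color. The 6 samples that received vemurafenib are red across the upper rows, from IFIT1 to IFI44L, whereas ISG20 and, in vemurafenib alone, IRF1 are blue.

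With vemurafenib, 20 of the 42 members rose and 6 fell relative to DMSO, and with the combination 21 rose and 6 fell. With vemurafenib the largest rises were in IFIT1, TRIM22, OASL, SAMD9L and IFIT2, and the largest falls in IRF1 and ISG20. With the combination the largest rises were in IFIT1, IFIT2, OASL, TRIM22 and IFI44L, and the largest fall in ISG20. Tretinoin alone raised 4 members, IFIT1, PARP9, DTX3L and SAMD9, and lowered none. Added to vemurafenib, it raised 3, IRF1, IFI35 and IFIT2. These calls are from edgeR's quasi-likelihood test, with the adjusted P taken over all genes tested and a threshold of 0.05.

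The members were chosen with earlier results of these data known, which limits what their shares can show. Read against all genes, 52.6% were called with vemurafenib (26.3% up and 26.3% down), while members were called up in 47.6% and down in 14.3%. With the combination, 53.6% of all genes were called (27.1% up, 26.5% down), against 50.0% of members up and 14.3% down. The background was 5.68% with tretinoin alone (3.48% up, 2.2% down), against 9.5% of members up and none down. It was 4.47% for the combination relative to vemurafenib (2.27% up, 2.2% down), against 7.1% of members up and none down. Relative to tretinoin, 18 members rose and 6 fell with the combination (42.9% and 14.3%), where 49.1% of all genes were called (24.0% up, 25.0% down). The share of members called up was thus above the share over all genes in each of these 5 comparisons, and the share called down was below it. For tretinoin and for the combination relative to vemurafenib this rests on 4 and 3 members. Without DMSO replicate 2, 1 of 42 members was called with tretinoin, where 2.2% of all genes were. With only the compared groups in the fit it was 1 of 40, against 2.01%. In these settings the members were near the background. The median log2 fold change of members was 0.28 for vemurafenib, 0.30 for the combination and 0.16 for tretinoin relative to DMSO, where the median over all genes was 0.02, 0.03 and 0.01. It was 0.03 for the combination relative to vemurafenib and 0.24 relative to tretinoin, against 0.00 and 0.02. The 5 comparisons are not separate results: those with DMSO share the same control samples, and those with the combination share its samples.

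All 3 samples of a group lay apart from all 3 of the other for 30 of 42 members with vemurafenib and 28 of 42 with the combination. Over all genes 61.9% and 61.4% did. The count was 15 of 42 for tretinoin, 9 of 42 for the combination relative to vemurafenib and 26 of 42 relative to tretinoin. The backgrounds were 24.2%, 24.2% and 55.1%, and the share for the combination relative to vemurafenib was below its background. Normalization by total counts alone in place of TMM raised the median of all genes. It became 0.21 with vemurafenib, 0.19 with the combination and 0.11 for the combination relative to tretinoin, from 0.02, 0.03 and 0.02. Under that scaling 25 members rose and 2 fell with vemurafenib, 26 and 2 with the combination, and 22 and 3 for the combination relative to tretinoin, where 55.0%, 54.7% and 49.7% of all genes were called. The falls then no longer called were those of OAS1, IFITM3, IFIT5 and IFITM2 with vemurafenib, of EIF2AK2, IRF1, IFIT5 and IFITM2 with the combination, and of EIF2AK2, OAS1 and IFIT5 for the combination relative to tretinoin. DDX58, MX2, OAS3, BST2, PSMB8 and SP100 passed the test in none of the 6 comparisons. In bulk RNA, a change in the number of expressing cells and a change in RNA per cell cannot be told apart.

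**Figure D2:**
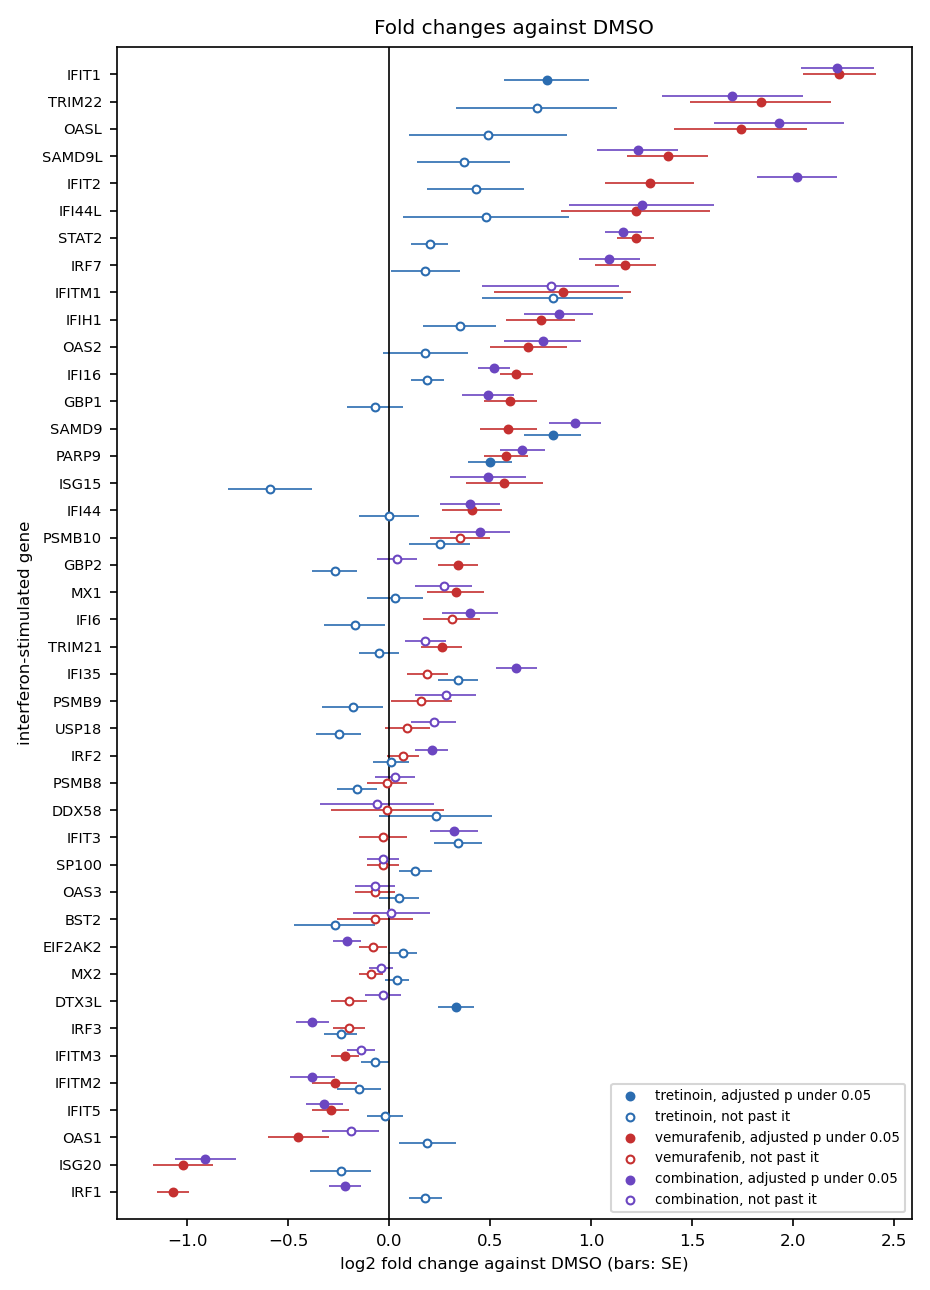
Log2 fold change relative to DMSO (horizontal axis, bars are SE) of the 42 tested members for tretinoin (blue), vemurafenib (red) and the combination (purple); filled points have an adjusted P under 0.05. Vemurafenib and combination values lie side by side for most members, while the combination point lies to the right of the vemurafenib point for IFIT2 (2.02 and 1.29), IFI35 (0.63 and 0.19) and IRF1 (-0.22 and -1.07).

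Among the transcription factors of the pathway, STAT2 and IRF7 rose and IRF1 fell with vemurafenib. STAT2, the STAT subunit specific to type I and III interferon signaling, was at 18.9 to 22.1 CPM in DMSO, 22.6 to 25.4 in tretinoin, 47.2 to 50.1 in vemurafenib and 43.5 to 51.8 in the combination. Its log2 fold change was 1.22 (SE 0.09, adjusted P = 3.57e-09) after vemurafenib, against 1.16 (SE 0.09, adjusted P = 6.1e-09) with the combination. IRF7, which amplifies interferon production, rose by 1.17 (SE 0.15) and 1.09 (SE 0.15). No DMSO or tretinoin sample reached any vemurafenib or combination sample for STAT2 or IRF7. IRF3, which acts early after RNA sensing, had a log2 fold change of -0.20 (SE 0.08, adjusted P = 0.053) with vemurafenib and fell by 0.38 (SE 0.08) with the combination. IRF2, an antagonist of IRF1, had a log2 fold change of 0.07 (SE 0.08) with vemurafenib and rose by 0.21 (SE 0.08, adjusted P = 0.0445) with the combination. The IRF2 call was lost without DMSO replicate 1 or 2, tretinoin replicate 2, or any single vemurafenib or combination replicate (0.16 to 0.23), with no low-count filter (0.21) and with DESeq2 (0.20).

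IRF1, an activator of interferon gamma targets, differed from the other factors. In DMSO it was at 25.5, 26.9 and 25.9 CPM, and in tretinoin at 29.2, 29.2 and 30.1. In vemurafenib it was at 11.6, 12.7 and 12.9, and in the combination at 23.4, 22.9 and 20.8. The 4 groups did not overlap: tretinoin was highest, followed by DMSO, the combination and vemurafenib. With vemurafenib IRF1 fell by 1.07 on the log2 scale (SE 0.08, adjusted P = 1.03e-08), and the combination exceeded vemurafenib by 0.85 (SE 0.08, adjusted P = 3.86e-06). Tretinoin alone gave 0.18 (SE 0.08, adjusted P = 0.183). The difference between these tretinoin effects, with and without vemurafenib, was 0.67 (SE 0.12, adjusted P = 0.00848), and IRF1 was the 1 member of 42 past the threshold for this interaction, where 0.806% of all genes were. The combination differed from tretinoin by -0.40 (SE 0.08, adjusted P = 0.000388). Relative to DMSO it had a log2 fold change of -0.22 (SE 0.08, adjusted P = 0.0249), a call lost under total-count scaling (-0.06), with either other count filter (-0.23 and -0.18), with only the compared groups in the fit (-0.20) and without DMSO replicate 2 (-0.20) or combination replicate 3 (-0.18). Exons of C5orf56 and AC116366.3 on the opposite strand cover 22% of IRF1 exon bases, and read pairs that touch exons of both genes were counted for neither.

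IRF9, the DNA-binding partner of the STAT proteins, had 2 to 10 counts per sample. Its low count has a counting limit: 88.9% of its coding bases (1238 of 1392) lie under exons of AL136295.5 on the same strand, so most of its read pairs could not be assigned. The level of IRF9 is therefore unknown here.

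The modifier ISG15, a ubiquitin-like protein conjugated to other proteins, rose with vemurafenib. It was at 5.99, 8.98 and 6.17 CPM in DMSO and at 2.93, 5.11 and 5.64 in tretinoin. Vemurafenib samples were at 10.8, 9.33 and 11.2, and combination samples at 12.1, 8.64 and 8.96. Tretinoin samples were all below DMSO and vemurafenib samples all above it, while 1 DMSO sample exceeded a pair of combination samples. The log2 fold change was 0.57 (SE 0.19, adjusted P = 0.0189) after vemurafenib, 0.49 (SE 0.19, adjusted P = 0.0392) with the combination and -0.59 (SE 0.21, adjusted P = 0.113) with tretinoin. The combination exceeded tretinoin by 1.08 (SE 0.20, adjusted P = 0.000255). The vemurafenib call was lost without DMSO replicate 1 or 3 or vemurafenib replicate 1 or 3 (0.47 to 0.54), and the combination call without DMSO replicate 1 or 3, vemurafenib replicate 1 or combination replicate 1 (0.33 to 0.48). USP18, which removes ISG15 and restrains the receptor, was at 12.1 to 13.5 CPM in DMSO, 9.15 to 12.1 in tretinoin, 12.5 to 14.6 in vemurafenib and 14 to 15.1 in the combination. It passed the test for the combination relative to tretinoin (0.47, SE 0.11, adjusted P = 0.00161) and in no other comparison. USP18 shares 917 bases of identical exon sequence with USP41, so its counts are uncertain.

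**Figure D3:**
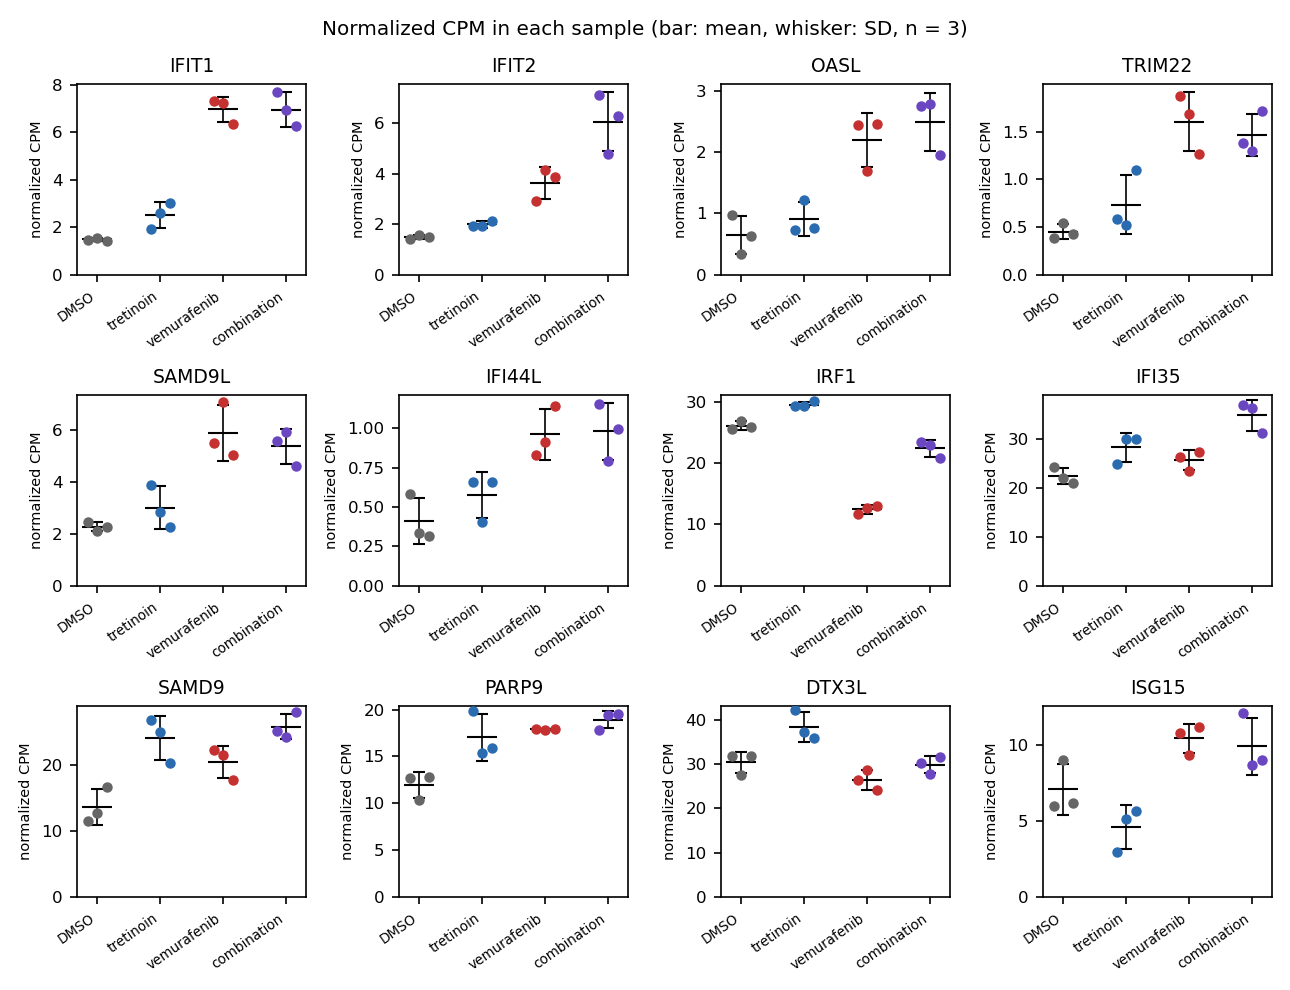
Normalized CPM (vertical axes, starting at 0) of 12 members in each sample, with the group mean (bar) and SD (whisker, n = 3). For IFIT1, IFIT2, OASL, TRIM22 and SAMD9L all samples with vemurafenib lie above all samples without it, whereas IRF1 is lowest in vemurafenib alone at 11.6 to 12.9 CPM.

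The IFIT proteins bind foreign RNA and block its translation, and their genes lie together on chromosome 10. IFIT1, which recognizes RNA caps that lack methylation, showed the largest rise of all members. It was at 1.48, 1.55 and 1.43 CPM in DMSO and at 1.91, 2.62 and 3.01 in tretinoin. In vemurafenib it was at 7.32, 7.22 and 6.37, and in the combination at 7.70, 6.92 and 6.25. The DMSO, tretinoin and vemurafenib samples did not overlap, and those of vemurafenib and the combination did. IFIT1 rose 4.69-fold with vemurafenib (log2 2.23, SE 0.18, adjusted P = 1.82e-08), 4.66-fold with the combination (log2 2.22, SE 0.18) and 1.72-fold with tretinoin (log2 0.78, SE 0.21, adjusted P = 0.0392). The tretinoin call was lost without any single DMSO replicate, tretinoin replicate 2 or 3, vemurafenib replicate 1 or 2, or combination replicate 2 (0.62 to 0.81).

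IFIT2, which pairs with IFIT1 and IFIT3, rose further with the combination than with vemurafenib. It was at 1.42, 1.55 and 1.48 CPM in DMSO and at 1.91, 1.92 and 2.14 in tretinoin. Vemurafenib samples were at 2.91, 4.14 and 3.85, and combination samples at 7.10, 4.79 and 6.29. No groups overlapped, and the order was DMSO, tretinoin, vemurafenib and the combination. The rise was 2.44-fold with vemurafenib (log2 1.29, SE 0.22, adjusted P = 8.63e-05) and 4.06-fold with the combination (log2 2.02, SE 0.20, adjusted P = 2.4e-07), and the combination exceeded vemurafenib by 0.73 (SE 0.17, adjusted P = 0.0174). That last call was lost without vemurafenib replicate 1 (0.59) or combination replicate 1 (0.61) or 3 (0.70). Tretinoin alone gave 0.43 (SE 0.24, adjusted P = 0.31), and the interaction was 0.31 (SE 0.30, adjusted P = 0.65).

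IFIT3, a partner of IFIT1 whose printed stretch also holds 2 response elements, had a log2 fold change of -0.03 (SE 0.12, adjusted P = 0.853) after vemurafenib, 0.34 (SE 0.12, adjusted P = 0.103) with tretinoin and 0.32 (SE 0.12, adjusted P = 0.0291) with the combination. Its levels were 10.3 to 13.6 CPM in DMSO, 12.9 to 16.9 in tretinoin, 10.8 to 12.3 in vemurafenib and 14.4 to 15.4 in the combination. The combination call was lost without DMSO replicate 2 or 3 or combination replicate 1 or 2 (0.22 to 0.32). IFIT5 moved the other way, from 36.9 to 44.2 CPM in DMSO to 31.9 to 33.8 in vemurafenib and 30.5 to 34 in the combination. It fell by 0.29 (SE 0.09) with vemurafenib and by 0.32 (SE 0.09) with the combination, calls that were lost under total-count scaling (-0.09 and -0.15), the former also without DMSO replicate 2 (-0.21).

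IFITM1, IFITM2 and IFITM3 encode membrane proteins that hinder viral entry, and BST2 encodes tetherin, which holds budding virus at the cell surface. IFITM1 was at 0.773 to 1.21 CPM in DMSO, 1.25 to 2.09 in tretinoin, 1.32 to 2.13 in vemurafenib and 0.935 to 2.22 in the combination. It rose by 0.86 (SE 0.34, adjusted P = 0.0408) with vemurafenib, a call lost without DMSO replicate 1 or 2 or vemurafenib replicate 1 or 2 (0.71 to 0.86). IFITM3 fell by 0.22 (SE 0.07, adjusted P = 0.01) with vemurafenib, but gave -0.03 under total-count scaling. IFITM2 fell by 0.27 (SE 0.11, adjusted P = 0.0469) after vemurafenib, against 0.38 (SE 0.11, adjusted P = 0.0073) with the combination, but gave -0.07 and -0.22 under total-count scaling, where neither was called. The vemurafenib call for IFITM2 was also lost without DMSO replicate 1 or 2, any vemurafenib replicate, or combination replicate 2 or 3 (-0.31 to -0.20), with either other count filter (-0.29 and -0.22), with DESeq2 (-0.27) and with only the compared groups (-0.26). IFITM1 and IFITM2 share 382 bases at 99.7% identity and overlap in their annotated exons, so reads may be split or dropped between them. BST2 lay between 3.15 and 6.55 CPM over all samples.

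Of the RNA sensors, IFIH1 (MDA5), which detects long double-stranded RNA, rose and DDX58 (RIG-I), which detects 5′-triphosphate RNA, did not pass the test. IFIH1 was at 2.77 to 4.05 CPM in DMSO, 3.84 to 4.91 in tretinoin, 4.93 to 5.82 in vemurafenib and 5.44 to 6.27 in the combination. It rose by 0.75 (SE 0.17, adjusted P = 0.00118) after vemurafenib, against 0.84 (SE 0.17, adjusted P = 0.000348) with the combination. DDX58, at 1.74 to 4.11 CPM over all samples, had log2 fold changes of -0.01 (SE 0.28) and -0.06 (SE 0.28). The RNA-activated kinase EIF2AK2 (PKR) had -0.08 (SE 0.07) with vemurafenib and fell by 0.21 (SE 0.07, adjusted P = 0.0237) with the combination, a call lost under total-count scaling (-0.05) and without DMSO replicate 1 or 3 or combination replicate 2 (-0.19 to -0.18), and with either other count filter (-0.21 and -0.16).

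The OAS enzymes make the second messenger that activates RNase L. OASL, a family member without this activity, was at 0.967, 0.338 and 0.633 CPM in DMSO and at 0.733, 1.22 and 0.767 in tretinoin. In vemurafenib it was at 2.44, 1.68 and 2.46, and in the combination at 2.75, 2.79 and 1.95. All samples with vemurafenib were above all samples without it, and DMSO and tretinoin overlapped. OASL rose by 1.74 (SE 0.33, adjusted P = 0.000291) after vemurafenib, against 1.93 (SE 0.32, adjusted P = 7.97e-05) with the combination, at 5 to 60 counts per sample. OAS2 rose by 0.69 (SE 0.19) and 0.76 (SE 0.19). OAS1 fell by 0.45 (SE 0.15, adjusted P = 0.0157) with vemurafenib, a call lost under total-count scaling (-0.26) and without DMSO replicate 3 or vemurafenib replicate 2 or 3 (-0.42 to -0.33). OAS3 lay between 64.4 and 90.8 CPM over all samples and passed in no comparison, so the 4 genes of this family did not move together.

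The dynamin-like GTPases MX1 and MX2 trap viral components, and the guanylate-binding proteins GBP1 and GBP2 attack pathogen-containing membranes. GBP1 was at 6.44 to 7.73 CPM in DMSO and 6.01 to 7.38 in tretinoin, against 9.86 to 11.5 in vemurafenib and 9.02 to 11.6 in the combination. It rose by 0.60 (SE 0.13, adjusted P = 0.000895) after vemurafenib, against 0.49 (SE 0.13, adjusted P = 0.004) with the combination. GBP2 rose by 0.34 (SE 0.10, adjusted P = 0.00961) with vemurafenib but had 0.04 (SE 0.10) with the combination; the difference between the combination and vemurafenib was -0.30 (SE 0.10, adjusted P = 0.117). MX1 rose by 0.33 (SE 0.14, adjusted P = 0.047) with vemurafenib, a call lost without DMSO replicate 1 or 2, tretinoin replicate 2 or 3, any vemurafenib replicate or combination replicate 2 (0.25 to 0.35), with no low-count filter (0.32) and with DESeq2 (0.34). MX2 was at 68.7 to 80.1 CPM over all samples and passed in no comparison.

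The E3 ligase TRIM22, an antiviral TRIM protein, rose strongly from a low level. It was at 0.387, 0.540 and 0.422 CPM in DMSO and at 0.587, 0.523 and 1.09 in tretinoin. Vemurafenib samples were at 1.87, 1.68 and 1.26, and combination samples at 1.38, 1.3 and 1.72. Samples with vemurafenib were all higher than samples without it. The rise was 1.84 (SE 0.35, adjusted P = 0.000261) after vemurafenib, against 1.70 (SE 0.35, adjusted P = 0.000525) with the combination, at 6 to 38 counts per sample. The combination exceeded tretinoin by 0.97 (SE 0.32, adjusted P = 0.0173), which was lost without tretinoin replicate 1 (0.84) or 2 (0.75) or combination replicate 3 (0.82). TRIM21, a cytosolic antibody receptor, rose by 0.26 (SE 0.10, adjusted P = 0.0318) with vemurafenib, a call lost without any single DMSO replicate or vemurafenib replicate 2 or 3 (0.19 to 0.27), with no low-count filter (0.24) and with DESeq2 (0.26). SP100, a nuclear body protein, was at 29.5 to 36.6 CPM over all samples.

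PARP9 and DTX3L encode partner proteins, an ADP-ribosyltransferase and a ubiquitin ligase, from neighboring genes on opposite strands of chromosome 3. PARP9 was at 12.7, 10.3 and 12.8 CPM in DMSO and at 19.9, 15.3 and 15.9 in tretinoin. In vemurafenib all 3 samples were at 17.9, and in the combination they were at 17.9, 19.4 and 19.5. All treated samples exceeded all DMSO samples. For PARP9 tretinoin gave a rise of 0.50 (SE 0.11, adjusted P = 0.0136), vemurafenib of 0.58 (SE 0.11, adjusted P = 0.000278) and the combination of 0.66 (SE 0.11, adjusted P = 6.48e-05); the tretinoin call was lost without DMSO replicate 2 (0.41).

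DTX3L passed the test with tretinoin and not with vemurafenib or the combination relative to DMSO. It was at 31.8, 27.7 and 31.8 CPM in DMSO and at 42.2, 37.2 and 36.0 in tretinoin. In vemurafenib it was at 26.5, 28.7 and 24.2, and in the combination at 30.3, 27.8 and 31.7. Tretinoin samples were the highest, and the other groups overlapped with DMSO. DTX3L rose by 0.33 (SE 0.09, adjusted P = 0.0401) with tretinoin, a call lost without any single DMSO replicate, tretinoin replicate 1 or 2, vemurafenib replicate 1 or combination replicate 1 (0.26 to 0.37). It had -0.20 (SE 0.09, adjusted P = 0.0778) with vemurafenib, and the combination differed from tretinoin by -0.36 (SE 0.09, adjusted P = 0.00313).

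SAMD9 and SAMD9L, adjacent genes on chromosome 7, encode restriction factors that limit translation. SAMD9 was at 11.4, 12.7 and 16.6 CPM in DMSO and at 26.7, 24.9 and 20.3 in tretinoin. Vemurafenib samples were at 22.2, 21.5 and 17.7, and combination samples at 25.1, 24.2 and 27.9. All treated samples were above all DMSO samples. For SAMD9 tretinoin gave a rise of 0.81 (SE 0.14, adjusted P = 0.00156), vemurafenib of 0.59 (SE 0.14, adjusted P = 0.00159) and the combination of 0.92 (SE 0.13, adjusted P = 1.84e-05), and the tretinoin call held with each library left out in turn.

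SAMD9L was at 2.45, 2.09 and 2.27 CPM in DMSO and at 3.89, 2.85 and 2.25 in tretinoin. In vemurafenib it was at 5.51, 7.07 and 5.05, and in the combination at 5.56, 5.90 and 4.62. Vemurafenib and combination samples were all above the others, and tretinoin overlapped with DMSO. It rose by 1.38 (SE 0.20, adjusted P = 2.13e-05) after vemurafenib, against 1.23 (SE 0.20, adjusted P = 6.69e-05) with the combination, against 0.37 (SE 0.23, adjusted P = 0.348) with tretinoin.

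The remaining effectors were mixed. IFI35, a partner of the interferon-induced protein NMI, was at 24.3, 22.1 and 21.0 CPM in DMSO and at 24.9, 30.0 and 30.0 in tretinoin. Vemurafenib samples were at 26.3, 23.4 and 27.3, and combination samples at 37.0, 36.3 and 31.2. Combination samples were above all others, and vemurafenib overlapped with DMSO. IFI35 rose by 0.63 (SE 0.10, adjusted P = 3.52e-05) with the combination, which exceeded vemurafenib by 0.44 (SE 0.10, adjusted P = 0.0104) and tretinoin by 0.30 (SE 0.10, adjusted P = 0.0175). The excess over vemurafenib was lost without vemurafenib replicate 2 or combination replicate 1 or 2 (0.38 to 0.41), and that over tretinoin without tretinoin replicate 1 or combination replicate 1 or 2 (0.21 to 0.26). Tretinoin alone gave 0.34 (SE 0.10, adjusted P = 0.0569) and vemurafenib alone 0.19 (SE 0.10, adjusted P = 0.117).

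IFI44L, a paralog of IFI44 with 5 to 22 counts per sample, was at 0.580, 0.338 and 0.317 CPM in DMSO and at 0.660, 0.407 and 0.657 in tretinoin. In vemurafenib it was at 0.831, 0.914 and 1.14, and in the combination at 1.16, 0.790 and 0.996. Samples with vemurafenib were above those without it. It rose by 1.22 (SE 0.37, adjusted P = 0.0103) with vemurafenib, a call lost without DMSO replicate 3 (1.03), and by 1.25 (SE 0.36, adjusted P = 0.00805) with the combination. IFI44 rose by 0.41 (SE 0.15, adjusted P = 0.0271) and 0.40 (SE 0.15, adjusted P = 0.0286). These IFI44 calls were lost without DMSO replicate 2 or 3, vemurafenib replicate 1 or 3, or combination replicate 1 or 2 (0.31 to 0.42), according to the group compared.

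IFI16, a nuclear DNA sensor, rose by 0.63 (SE 0.08, adjusted P = 5.85e-06) after vemurafenib, against 0.52 (SE 0.08, adjusted P = 5.12e-05) with the combination, from 53.6 to 71.3 CPM in DMSO to 95.8 to 97.2 and 83.8 to 92.7. ISG20, an exonuclease, fell by 1.02 (SE 0.15, adjusted P = 2.38e-05) and 0.91 (SE 0.15, adjusted P = 6.69e-05), from 38.6 to 44.7 CPM in DMSO to 19.8 to 22.5 and 21.3 to 25.3. Both genes had no overlap between DMSO and either group with vemurafenib. In tretinoin, ISG20 was at 24.0 CPM in replicate 1 and at 41.7 and 42.5 in the others. IFI6, a mitochondrial protein that opposes apoptosis, rose by 0.40 (SE 0.14, adjusted P = 0.0229) with the combination, lost without DMSO replicate 1 or 3 or combination replicate 1 (0.28 to 0.41). IFI27 had 0 to 9 counts and XAF1 0 to 3 counts per sample, too few for a comparison, and 38.3% of XAF1 exon bases lie under PRAL on the opposite strand.

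The immunoproteasome subunits PSMB8, PSMB9 and PSMB10 replace catalytic subunits of the proteasome and change the peptides presented to T cells. None passed the test with tretinoin or vemurafenib alone. PSMB10 rose by 0.45 (SE 0.15, adjusted P = 0.0166) with the combination, lost without DMSO replicate 1 or combination replicate 2 or 3 (0.37 to 0.41), and 34.8% of its exon bases lie under AC040162.1. PSMB9 was higher in the combination than in tretinoin by 0.46 (SE 0.15, adjusted P = 0.0176), lost without tretinoin replicate 1 (0.27) or combination replicate 1 (0.37). PSMB8 was at 37.8 CPM in tretinoin replicate 1 and between 46.4 and 55.9 in the other 11 samples.

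**Figure D4:**
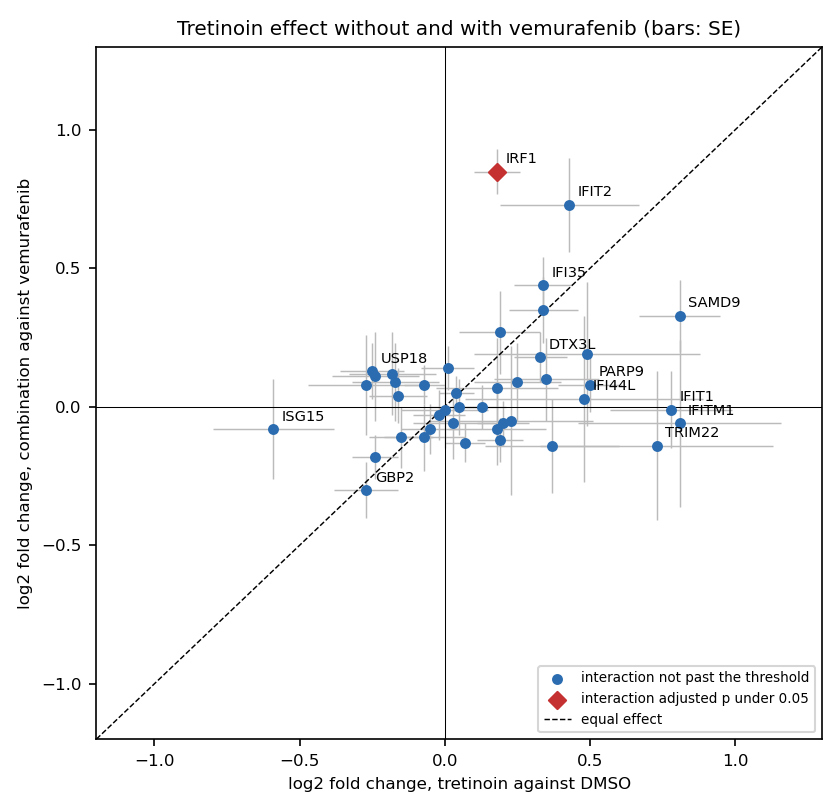
Log2 fold change of the 42 tested members with tretinoin relative to DMSO (horizontal) against the combination relative to vemurafenib (vertical), with SE bars and a dashed line of equal effect. IRF1 lies above the line at 0.18 and 0.85 and is the 1 member whose difference passed the test, while IFIT1 lies at 0.78 and -0.01.

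The effect of tretinoin was compared without and with vemurafenib. Fold changes were positive for 27 of 42 members for tretinoin relative to DMSO and for 22 for the combination relative to vemurafenib. Over all genes the medians were 0.01 and 0.00, close to an even split of signs, and 22 of 42 lay near such a split. For SAMD9 the values were 0.81 (SE 0.14) and 0.33 (SE 0.13), with an interaction of -0.48 (SE 0.19, adjusted P = 0.25). For IFIT1 they were 0.78 (SE 0.21) and -0.01 (SE 0.14), with an interaction of -0.79 (SE 0.26, adjusted P = 0.172). Neither interaction passed the test, which does not show that the effects were equal. PARP9 had 0.50 (SE 0.11) and 0.08 (SE 0.10), with an interaction of -0.42 (SE 0.15, adjusted P = 0.223).

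**Figure D5:**
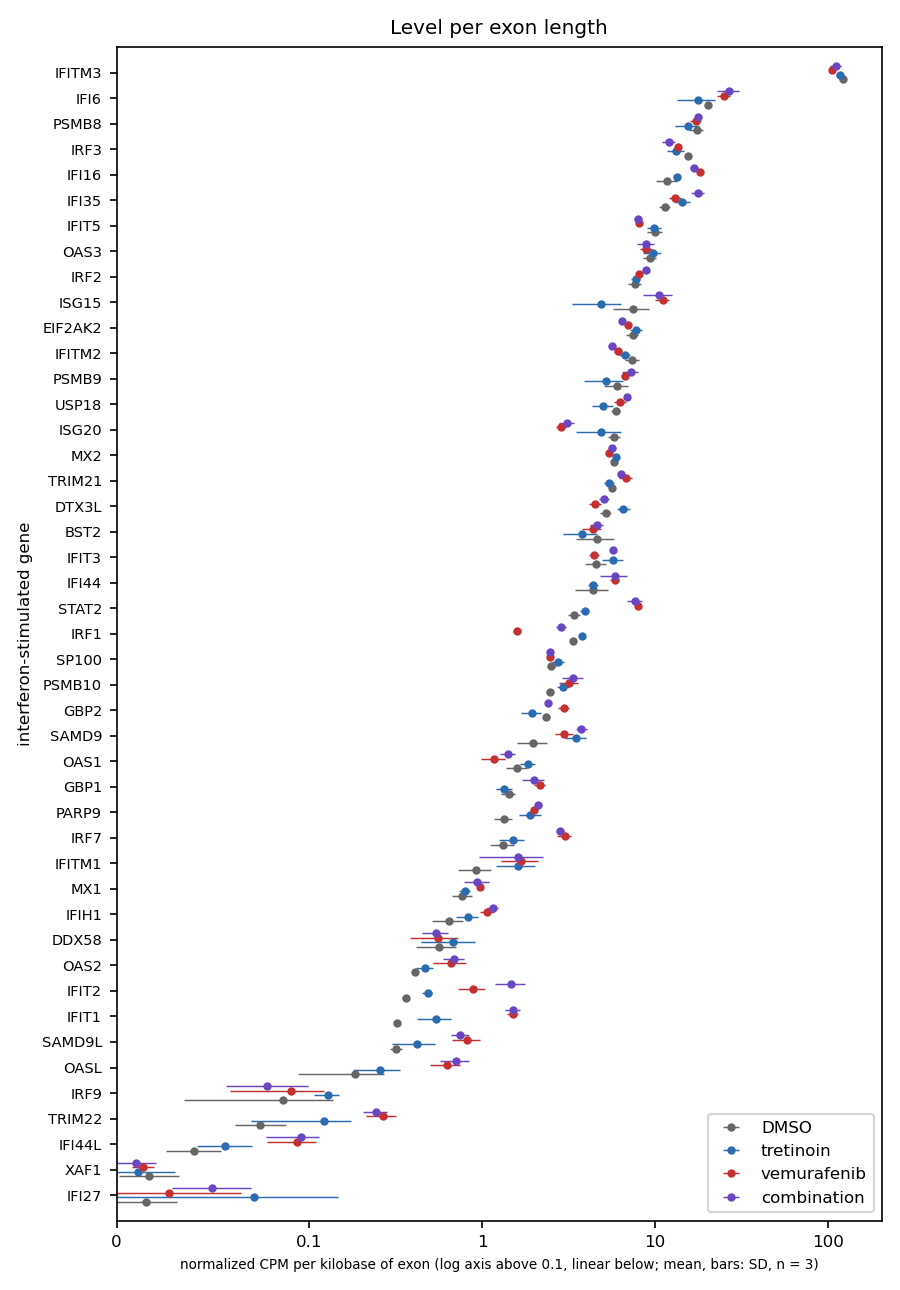
Normalized CPM per kilobase of exon (horizontal axis, logarithmic above 0.1 and linear below) for the 45 members in the 4 groups, as mean and SD (n = 3). Levels in DMSO run from under 0.1 for IFI27, XAF1, IFI44L and TRIM22 to 122.5 for IFITM3; the points of IRF9 do not give its level, since most of its read pairs could not be assigned.

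Levels of different genes were compared per kilobase of exon. In DMSO, IFITM3 was the highest at 122.5 ± 2.14 CPM per kilobase (SD, n = 3), followed by IFI6 at 20.2 ± 0.728, PSMB8 at 17.4 ± 1.64 and IRF3 at 15.6 ± 0.608; PSMB8 and IRF3 lay within their spread of each other. IFIT1 was at 0.322 ± 0.0140, IFIT2 at 0.362 ± 0.0166, OASL at 0.184 ± 0.0895, SAMD9L at 0.318 ± 0.0249 and TRIM22 at 0.0747 ± 0.0134. Members with the largest rises were thus among the less abundant in DMSO, though DDX58, at 0.561 ± 0.145, passed the test in no comparison. The DMSO level also enters the fold change, so the 2 are not independent, and a link between them was not tested.

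Members with and without the response element in their RefSeq windows both included genes called in each direction. With vemurafenib, 11 of 22 tested members with the element rose and 3 fell (median 0.32), and of 9 without it 3 rose and 2 fell (median 0.16), where 26.3% of all genes rose and 26.3% fell. With tretinoin, 4 of the 22 rose (median 0.04) and none of the 9 (median 0.19), where 3.48% of all genes rose. Of 7 tested members with a gamma-activated site, 2 rose and 2 fell with vemurafenib. For the combination relative to tretinoin, 6 of the 22 rose and 4 fell, and 5 of the 9 rose and 2 fell. Over all genes 24.0% rose and 25.0% fell there. Members without a window, among them IFIT2, OASL and TRIM22, are in none of these counts. These are counts with no test.

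The other genes of the pathway were examined in the same fit, in which 26.3% of all genes rose and 26.3% fell with vemurafenib, 27.1% and 26.5% with the combination, and 3.48% and 2.2% with tretinoin. Of 10 interferon genes, including IFNB1, IFNG and IFNL1, 5 had 0 counts in all samples, the highest count was 3, and none was tested. Among 9 receptor chains and kinases, none passed with tretinoin. With vemurafenib 2 rose and 1 fell: IFNGR2, a chain of the interferon gamma receptor, fell by 1.13 (SE 0.11, adjusted P = 1.21e-07), IL10RB, shared with the type III receptor, rose by 0.75 (SE 0.13) and JAK2 rose by 0.57 (SE 0.12). With the combination IFNGR2 fell by 1.12 (SE 0.11) and IL10RB rose by 0.59 (SE 0.13).

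Among 10 sensing receptors, adaptors and related genes, 9 were tested, and with vemurafenib 3 rose and 4 fell. DHX58 (LGP2), a regulator of MDA5, rose by 1.52 (SE 0.16, adjusted P = 2.99e-07) and the endosomal RNA receptor TLR3 by 1.49 (SE 0.13, adjusted P = 2.96e-08). TMEM173 (STING) fell by 1.05 (SE 0.09), TRAF3 by 0.72 (SE 0.08) and TICAM1, the TLR3 adaptor, by 0.70 (SE 0.09). With the combination 2 rose and 3 fell, the rises being 1.66 (SE 0.15) for DHX58 and 1.56 (SE 0.13) for TLR3. TLR3 was the 1 gene of this list called with tretinoin alone, at 0.59 (SE 0.14, adjusted P = 0.0176). Of 12 negative regulators and ISG15-pathway enzymes, 2 rose and 4 fell with vemurafenib, with SOCS3, a JAK inhibitor, at -1.45 (SE 0.11, adjusted P = 1.02e-08) the lowest and UBA7, the ISG15-activating enzyme, at 0.79 (SE 0.16) the highest. With the combination 1 rose and 2 fell.

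A further list of 35 interferon-induced genes, drawn up like the members with earlier results known, had 28 tested genes. With vemurafenib 12 rose and 2 fell (median 0.34), against 26.3% up and 26.3% down over all genes, and with the combination 14 rose and 2 fell (median 0.26), against 27.1% and 26.5%. RSAD2 (viperin), an antiviral enzyme at 1 to 46 counts per sample, rose by 3.06 (SE 0.51, adjusted P = 7.97e-05) and 2.55 (SE 0.54, adjusted P = 0.000664). IRF5 rose by 1.67 (SE 0.22) with vemurafenib and 0.97 (SE 0.23) with the combination, and the combination differed from vemurafenib by -0.70 (SE 0.19, adjusted P = 0.0399). PLSCR1, a lipid scramblase, fell by 0.87 (SE 0.09, adjusted P = 5.51e-07) with vemurafenib, and the combination exceeded vemurafenib by 0.77 (SE 0.09, adjusted P = 3.22e-05). Its interaction was 0.70 (SE 0.13, adjusted P = 0.0129). For the combination relative to vemurafenib, 2 of the 28 rose (PLSCR1 and GBP4) and 2 fell (TDRD7 and IRF5), where 2.27% and 2.2% of all genes did. PLSCR1 was the 1 gene of the 28 called for the interaction, where 0.806% of all genes were. With tretinoin 2 of the 28 rose, PARP14 by 0.44 (SE 0.11) and CNP by 0.24 (SE 0.06), and none fell.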

How the data were processed

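The authors prepared directional libraries from poly(A)-selected RNA, aligned the reads with STAR 2.5.3a to GRCh38 (patch p10; tool and build per the submitters' processing notes), and counted read pairs per GENCODE 27 gene (union mode, either strand). The deposited values are raw counts per gene and sample with no normalization. A pair over exons of 2 genes was counted for neither. Symbols, positions and overlaps were taken from GENCODE 29.

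Genes were filtered by filterByExpr (16740 of 58347 kept) and normalized by TMM, and edgeR 4.0.16 (R 4.3.3) was used for a quasi-likelihood fit over all 12 samples whose only terms were the groups. Benjamini-Hochberg adjustment ran over all genes tested, with a threshold of 0.05. SE is the size of a log2 fold change divided by the square root of its F statistic. Levels are TMM-normalized CPM. The fit was tried on simulated counts for the combination relative to DMSO only. All genes there had the same dispersion and no replicate stood apart from its group, so the other comparisons were not covered. DESeq2 1.42.0 was run as an alternative, with other scalings, filters, sample sets and the replicate number as a block. Shared exon sequence was found with blastn 2.17.0.

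The members and gene lists were chosen with earlier results of these data known. Values in every sample are given for members among the 5 largest changes past the threshold in any of 6 comparisons, and for those past it in the interaction, (combination - vemurafenib) - (tretinoin - DMSO). Genes of the other lists are named from those past the threshold, up to 6 per list and comparison by size. One marker gene of the lists is not reported here and is in no sum.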

Additional observations from a re-analysis of the deposited data

Results flagged for a closer look

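The effect of tretinoin on IRF1 differed according to the presence of vemurafenib. The log2 fold change was 0.85 (SE 0.08) for the combination relative to vemurafenib and 0.18 (SE 0.08) for tretinoin relative to DMSO, and the interaction term of the edgeR fit was 0.67 (SE 0.12, adjusted P = 0.00848). All 3 combination samples (20.8 to 23.4 CPM) were above all 3 vemurafenib samples (11.6 to 12.9 CPM). The interaction was called under each of the 18 alternatives run for it, at 0.56 to 0.72. Exons of genes on the opposite strand cover 22% of the exon bases of IRF1, and their part in this result was not tested.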

How the results depend on the processing

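No call reversed its sign under any alternative run. Of the members called, 1 of 4 for tretinoin (SAMD9), 16 of 26 for vemurafenib and 17 of 27 for the combination relative to DMSO, 1 of 3 for the combination relative to vemurafenib (IRF1), 14 of 24 relative to tretinoin and 1 of 1 for the interaction were kept under every alternative that could be fitted. For tretinoin relative to DMSO, 1 member was called with only the compared groups in the fit and 2 with the replicate block. Over all genes 2.01% and 3.87% were called in these settings. On leaving out 1 replicate, 1 to 5 members were called, against 2.2% to 7.95% of all genes. For the combination relative to vemurafenib, 6 were called with only the compared groups, against 7.77% of all genes. On leaving out 1 replicate it was 1 to 5 members, against 2.69% to 6.85%. With only the compared groups, PARP9 (0.51), DTX3L (0.34) and IFIT1 (0.78) were no longer called for tretinoin. The cause of these shifts was not tested. Without tretinoin replicate 1, the count was 5 for the combination relative to vemurafenib, against 6.85% of all genes. In that setting 5 of 85 member calls over all comparisons were lost.

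Samples that share a replicate number did not deviate together (mean r = -0.031, from -0.143 to 0.087, against 0.015 for different numbers), so the number was not treated as pairing. With the replicate block, 24 members were called for vemurafenib and 25 for the combination relative to DMSO, where 50.3% and 51.2% of all genes were. For tretinoin relative to DMSO 648 genes in all were called, against 951 without the block. The block ended the calls of DTX3L (0.33) and IFIT1 (0.78) for tretinoin, MX1 (0.34) and IFITM2 (-0.27) for vemurafenib, and IRF2 (0.21) and ISG15 (0.49) for the combination relative to DMSO, and no other member call. At this depth, members with few counts (OASL, TRIM22, IFI44L and IFITM1) have SEs of 0.32 to 0.41 relative to DMSO. IFI27 and XAF1 could not be compared.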
